A study of Mus musculus with 20 samples.

Results

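The genes described here are 10 that break down heme or move and store iron in macrophages: Hmox1, Blvra, Blvrb, Slc48a1, Ftl1, Fth1, Slc40a1, Tfrc, Slc11a1 and Slc11a2. They were taken from the deposited counts table by symbol, 10 of its 22165 genes, by a rule that uses no measured value, and all 10 passed the filter on low counts. The genes themselves were chosen with earlier results of these data known. The table covers 20 RNA sequencing libraries of bone marrow-derived macrophages, cells grown from the marrow of wild-type C57BL/6 mice for 7 days with m-CSF, the growth factor that turns marrow cells into macrophages. Control cells (Ctrl) and cells given 250 µM dimethyl itaconate (DI) for 12 h were sampled before stimulation (0 h) and 1, 2, 4 and 6 h after LPS and IFNg, which makes 10 groups of 2 libraries. DI is a membrane-permeable ester of itaconate, a metabolite that activated macrophages make, and LPS with IFNg is a standard stimulus for inflammatory activation. The labels do not say what Ctrl cells received in place of DI, or whether the 2 libraries of a group come from separate animals or cultures, so the p-values measure only the spread between these libraries, which may be technical.

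Macrophages take up aged red cells and recycle their iron. Heme reaches the cytosol through the transporter HRG1 (Slc48a1). Heme oxygenase 1 (Hmox1) opens the heme ring to release iron, carbon monoxide and biliverdin. Biliverdin reductase A (Blvra) reduces biliverdin to bilirubin, and Blvrb encodes biliverdin reductase B, which also reduces flavins. The iron is stored inside shells of ferritin light and heavy chains (Ftl1, Fth1) or leaves the cell through ferroportin (Slc40a1), the iron exporter of vertebrate cells. Transferrin receptor 1 (Tfrc) brings in transferrin-bound iron, DMT1 (Slc11a2) carries iron from endosomes to the cytosol, and NRAMP1 (Slc11a1) pumps metal ions out of the phagosome. Several of these genes are also controlled after transcription. Iron regulatory proteins bind a hairpin, the iron-responsive element, and hold back translation when it lies in a 5′ UTR or protect the transcript when it lies in a 3′ UTR. Counts of transcripts do not show that translational layer.

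The iron-responsive elements of 4 of the genes are shown because their place differs between the storage and export genes and the uptake receptor Tfrc. The search asked for an unpaired C, 5 bases, a loop of 6 letters that reads CAGTGN, and 5 bases that pair with the first 5 in all 5 positions, with G-U pairs allowed. It was run on the sense strand of annotated UTRs (GENCODE M21, GRCm38), and the letters are DNA, 5′ to 3′, with the loop core in capitals.
Fth1, 5′ UTR, chr19:9982738-9982754, plus strand: cttcaaCAGTGcttgaa
Ftl1, 5′ UTR, chr7:45459785-45459801, minus strand: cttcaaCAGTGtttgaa
Slc40a1, 5′ UTR, chr1:45925471-45925487, minus strand: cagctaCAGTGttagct
Tfrc, 3′ UTR, chr16:32631225-32631241, plus strand: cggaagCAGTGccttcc
Tfrc, 3′ UTR, chr16:32631604-32631620, plus strand: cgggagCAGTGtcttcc
Tfrc, 3′ UTR, chr16:32631669-32631685, plus strand: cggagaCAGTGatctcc
Tfrc, 3′ UTR, chr16:32631716-32631732, plus strand: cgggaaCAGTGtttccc
The 3 genes with a 5′ match encode the ferritin chains and the exporter, and the gene with 4 matches in its 3′ UTR encodes the uptake receptor. Such a match was found in the 5′ UTR of 31 of 20916 genes (0.148%) and in the 3′ UTR of 129 of 21039 (0.613%). The other 6 genes, Slc11a2 among them, held no match to this strict pattern. That says only that these letters are not in their annotated UTRs, and hairpins with a mismatch or bulge were not searched for. In promoter windows from RefSeq (GRCm38.p6), which were found for 6 of the 10 genes, the core TGACNNNGC of the antioxidant response element was searched on both strands. These genes have 9 windows, some with more than 1 start site. The core occurred in 1 of the 9, that of Blvra, and in 4071 of 32851 windows of the same length (12.4%). Hmox1, Slc48a1, Slc40a1 and Slc11a2 had no window and were not searched. Sequence outside the windows was not searched either, so the search does not show which of the 10 genes carry the element.

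On the same build Hmox1 lies at chr8:75093621-75100589, Blvra at chr2:127070665-127097084 and Blvrb at chr7:27447978-27466144. Slc48a1 lies at chr15:97778520-97792692, Slc40a1 at chr1:45908068-45926523 and Tfrc at chr16:32608920-32632794. Ftl1 spans chr7:45457944-45459884 and Fth1 chr19:9980598-9985098. Slc11a1 spans chr1:74375195-74386062 and its relative Slc11a2 chr15:100387898-100425072. All 10 are protein-coding.

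Ctrl libraries held 3655977 to 8938983 counts and DI libraries 3982073 to 6725447. The DI libraries stood apart in complexity, with 11143 to 12356 genes at 0 against 9301 to 10859 in Ctrl, and an estimate of 3.87 to 10.5 reads per molecule against 1.80 to 3.37. This difference moves with every comparison of DI with Ctrl, and its part in them was not tested. The same comparisons on counts collapsed to estimated molecules gave 31 calls of these genes where the counts as deposited gave 30. Over all genes the collapsed counts gave 703 calls at 0 h and 831 at 1 h, where the deposited counts gave 384 and 521. The collapse divides each library by its own estimate, so it cannot separate complexity from treatment. All 8 macrophage markers were detected in both treatments, with summed levels of 3246 to 4757 CPM in Ctrl and 2620 to 4382 CPM in DI. Single markers differed in range between treatments. Fcgr1 did not overlap (487 to 789 CPM in Ctrl, 232 to 469.8 CPM in DI), Itgam ran from 149 to 758 and from 70.7 to 268 CPM, and Cd14 from 44.0 to 202 and from 12.9 to 85.9 CPM. Their part in the results was not tested. Of the markers of red cell precursors, a source of heme and iron transcripts, Hbb-bs, Alas2 and Slc4a1 were at 0 in every library, and the summed level of the list never passed 2.76 CPM. The 5 stromal markers, all detected, summed to 38.5 to 68.7 CPM in Ctrl and 5.30 to 39.7 CPM in DI, which moves with the treatment and whose part in the results was not tested. In bulk RNA, fewer cells of a type and less RNA per cell cannot be told apart.

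The first comparison asks how DI changed these genes before and during stimulation. Levels below are CPM, counts scaled to a common library size with TMM factors, changes are log2 fold changes ± SE from edgeR's quasi-likelihood test, and a gene is called at a Benjamini-Hochberg adjusted p under 0.05 over 10663 genes. At 0 h 6 of the 10 genes were higher in DI, the heme importer, heme oxygenase, Blvrb, Ftl1, the exporter and Slc11a1, where 1.43% of all genes tested were higher and 2.17% lower. At 1 h 4 were higher (background 1.86% higher, 3.03% lower), namely Hmox1, Blvrb, Slc48a1 and Slc40a1. At 2 h 7 were higher (2.27% and 3.97%), all of the 0 h genes and Fth1. At 4 h the 6 genes of 0 h were higher again (3.43% and 6.00%), and at 6 h the 7 of 2 h (5.24% and 8.95%). None was lower at any time by edgeR, by DESeq2 or by limma-voom, and 0 were lower at an unadjusted p under 0.05. The median change of the 10 genes was 1.26, 0.84, 1.43, 1.19 and 2.02 at the 5 times, beside −0.05, 0.00, −0.03, −0.06 and −0.03 for all genes tested. Blvra, Tfrc and Slc11a2 were not called by edgeR at any of the 5 times. The 5 comparisons use different libraries.

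**Figure D1:**
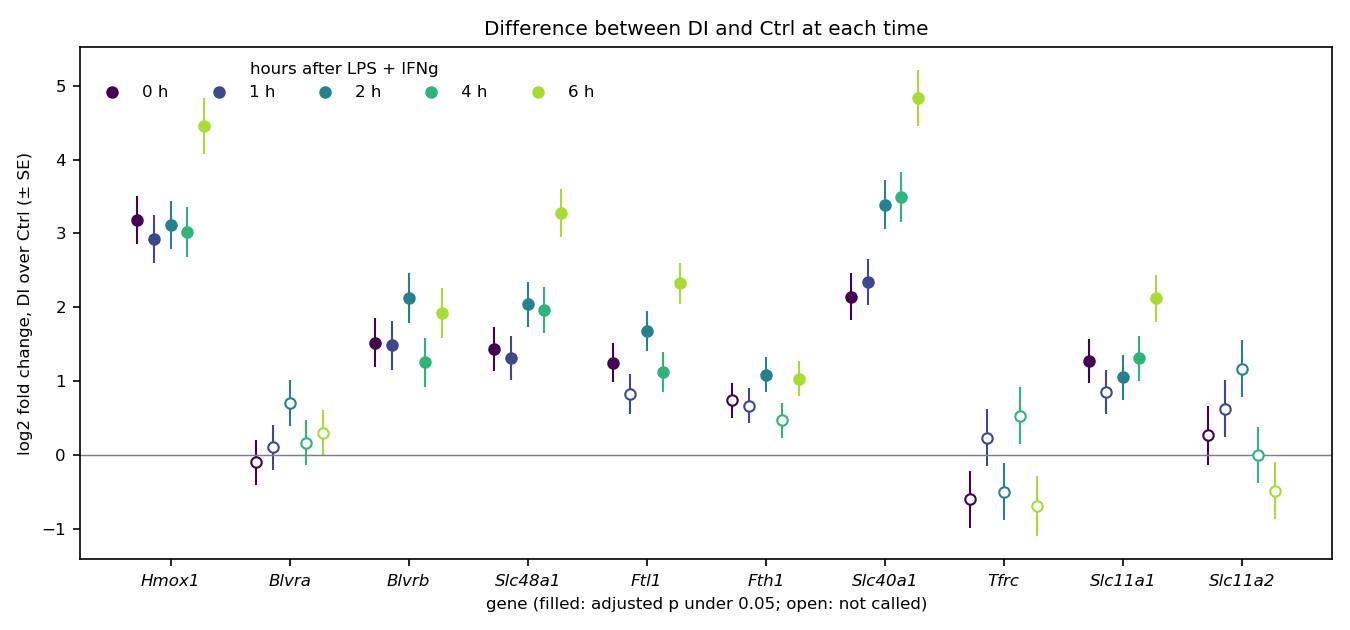
Log2 fold change of DI over Ctrl for each gene (horizontal axis) at 0, 1, 2, 4 and 6 h (colours), with bars of 1 SE and 2 libraries per group; filled points passed an adjusted p under 0.05 and open points did not. Hmox1 and Slc40a1 reach 4.46 and 4.83 at 6 h, while Blvra, Tfrc and Slc11a2 have open points at every time.

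Hmox1, whose product opens the heme ring, had the largest change of the 10 genes at 0 and 1 h. At 0 h it stood at 232 and 193 CPM in the DI libraries and at 18.9 and 27.9 CPM in the Ctrl libraries. At 1 h the values were 183 and 144 against 24.9 and 18.3 CPM, and at 2 h 209 and 239 against 22.6 and 28.8 CPM. Every DI library was thus several times above every Ctrl library. At 4 h the levels were 134 and 102 against 14.7 and 14.3 CPM, and at 6 h 142 and 97.7 against 6.80 and 4.19 CPM. The lowest DI library of the whole course, at 97.7 CPM, lay above the highest Ctrl library, at 28.8 CPM. The change was 3.18 ± 0.33 at 0 h (edgeR adjusted p = 4.89e-07), then 2.93 ± 0.33, 3.12 ± 0.33 and 3.02 ± 0.34, and 4.46 ± 0.38 at 6 h (edgeR adjusted p = 1.46e-08). By fitted fold this is between 7.62-fold and 22.0-fold. These values are for Hmox1 alone. Hmox2, the gene of heme oxygenase 2, was looked at after its values were seen and was not called between treatments. It stood at 72.3 and 45.6 CPM in DI and 128 and 101 CPM in Ctrl at 0 h. The treatments overlapped at 6 h, at 86.3 and 44.7 against 95.5 and 79.8 CPM.

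Of the 2 biliverdin reductase genes, Blvrb was called and Blvra was not. Blvrb, the biliverdin reductase B that also reduces flavins, was higher in DI at all 5 times, at 288 and 123 against 66.2 and 76.8 CPM at 0 h, 302 and 310 against 66.2 and 74.3 CPM at 2 h, and 458 and 277 against 101 and 92.4 CPM at 6 h. At 1 h its levels were 218 and 149 against 71.6 and 59.1 CPM and at 4 h 326 and 274 against 121 and 130 CPM. No DI library overlapped Ctrl at its own time, although the 2 DI libraries at 0 h differed by more than the Ctrl pair. Its change was 1.52 ± 0.33, 1.49 ± 0.33, 2.12 ± 0.34, 1.26 ± 0.33 and 1.92 ± 0.34 in order of time, with edgeR adjusted p from 2.23e-04 at 2 h to 0.0157 at 4 h. The 0 h call was lost without either Ctrl library or without DI replicate 1 (0.77 to 1.62, edgeR adjusted p 0.0566 to 0.272) and in a model of the compared groups alone (adjusted p = 0.171). The 1 h call was lost without Ctrl replicate 2 or DI replicate 1 (adjusted p 0.0827 to 0.123), and the 4 h call without either Ctrl library or DI replicate 1 (0.0781 to 0.138).

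Blvra, biliverdin reductase A, is the enzyme usually named as the main source of bilirubin in adult tissue. It ran from 26.5 to 60.7 CPM in Ctrl and from 32.6 to 75.3 CPM in DI, and the treatments overlapped at 0 and 4 h. Its change lay between −0.10 ± 0.30 at 0 h and 0.71 ± 0.31 at 2 h, and at no time was it called (smallest edgeR adjusted p = 0.187, at 2 h). At 2 h the libraries did not overlap, at 63.1 and 75.3 against 44.6 and 40.4 CPM.

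Slc48a1, which carries heme from the phagolysosome to the cytosol, was higher in DI at every time. Its levels were 213 and 147 CPM in DI against 71.3 and 61.9 CPM in Ctrl at 0 h, and 146 and 169 against 78.8 and 48.4 CPM at 1 h. At 2 h they were 151 and 177 against 48.5 and 31.5 CPM, and at 4 h 139 and 154 against 35.8 and 39.4 CPM. The gap was widest at 6 h, with 241 and 240 CPM in DI, the highest group of all 10, and 27.2 and 22.4 CPM in Ctrl, the lowest. The lowest of the 10 DI libraries, at 139 CPM, was above the highest Ctrl library, at 78.8 CPM. The change was 1.43 ± 0.30, 1.31 ± 0.30, 2.04 ± 0.31, 1.96 ± 0.31 and 3.28 ± 0.33 at the 5 times (edgeR adjusted p = 0.00431 at 0 h and 1.42e-07 at 6 h). At 0 h the call was lost without Ctrl replicate 2 or DI replicate 1 (1.13 to 1.33, adjusted p 0.0712 to 0.0959) and in a model of the compared groups alone (0.104). At 1 h it was lost without Ctrl replicate 2 or DI replicate 2 (0.99 to 1.20, adjusted p 0.0807 to 0.220) and in that model (0.0614).

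Both ferritin chains were called higher in DI, Ftl1 at 4 times and Fth1 at 2. Ftl1, the light chain that helps form the iron core, stood at 6421 and 4063 CPM in DI and 2202 and 2201 CPM in Ctrl at 0 h. At 6 h it stood at 7639 and 6169 CPM in DI and 1337 and 1416 CPM in Ctrl. The 10 DI libraries ran from 4063 to 7948 CPM and the 10 Ctrl libraries from 1337 to 2834 CPM, so that none overlapped. Its change was 1.25 ± 0.27 at 0 h, then 1.68 ± 0.27, 1.12 ± 0.27 and 2.33 ± 0.28 from 2 to 6 h (edgeR adjusted p = 2.02e-06 at the last). At 1 h it was 0.83 ± 0.27 and not called (edgeR adjusted p = 0.0759), though limma-voom called it (0.0376), as did the model without replicate 2 of DI at 2, 4 and 6 h together (0.0481). Without either Ctrl library or DI replicate 1 the 0 h call was lost (0.87 to 1.24, adjusted p 0.0799 to 0.132), as it was in a model of the compared groups alone (0.124). The 4 h call was lost without Ctrl replicate 1 or DI replicate 1 (0.94 to 1.01, adjusted p 0.0692 to 0.112).

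Fth1 is the heavy chain that oxidises iron for storage. It ran from 6947 to 13794 CPM in Ctrl and from 10622 to 27616 CPM in DI, and the treatments did not overlap at any single time. At 2 h it stood at 18887 and 19158 against 8504 and 9427 CPM (1.09 ± 0.24, edgeR adjusted p = 0.00519), and at 6 h at 27616 and 19597 against 11025 and 12011 CPM (1.04 ± 0.24, edgeR adjusted p = 0.00371). These 2 times were the only ones called by edgeR. The values at 0, 1 and 4 h were 0.74 ± 0.24, 0.67 ± 0.24 and 0.47 ± 0.23 (adjusted p = 0.0893, 0.116 and 0.229). At 0 h DESeq2 and limma-voom called it (0.0250 and 0.0374). The 2 h call was lost without Ctrl replicate 1 (1.00, adjusted p = 0.0916) and in a model of the compared groups alone (0.0508), and the 6 h call without Ctrl replicate 1 or DI replicate 1 (0.76 to 0.97, adjusted p 0.0623 to 0.0649).

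Summed, Ftl1 and Fth1 took 0.945 to 1.44% of all counts in Ctrl libraries and 1.89 to 3.25% in DI libraries, a share that needs no scaling factor and in which the treatments did not overlap. The ratio of Fth1 to Ftl1 counts within a library moved with time in Ctrl. It was 3.15 and 3.76 at 0 h, 3.11 and 3.21 at 1 h and 4.67 and 4.22 at 2 h. It then reached 5.86 and 5.84 at 4 h and 8.25 and 8.48 at 6 h. In DI it was 2.31 and 2.61 at 0 h and 3.62 and 3.18 at 6 h, with a highest value of 4.17 at 4 h, so at 6 h the treatments were far apart. These ratios compare counts of 3′ ends and are given as a description. Reads of ferritin could be shared with near-identical copies: the pseudogene Ftl1-ps1 held 0.761 to 1.74% of the Ftl1 count in Ctrl and 0.523 to 1.05% in DI, and other ferritin pseudogenes were not analysed here.

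**Figure D2:**
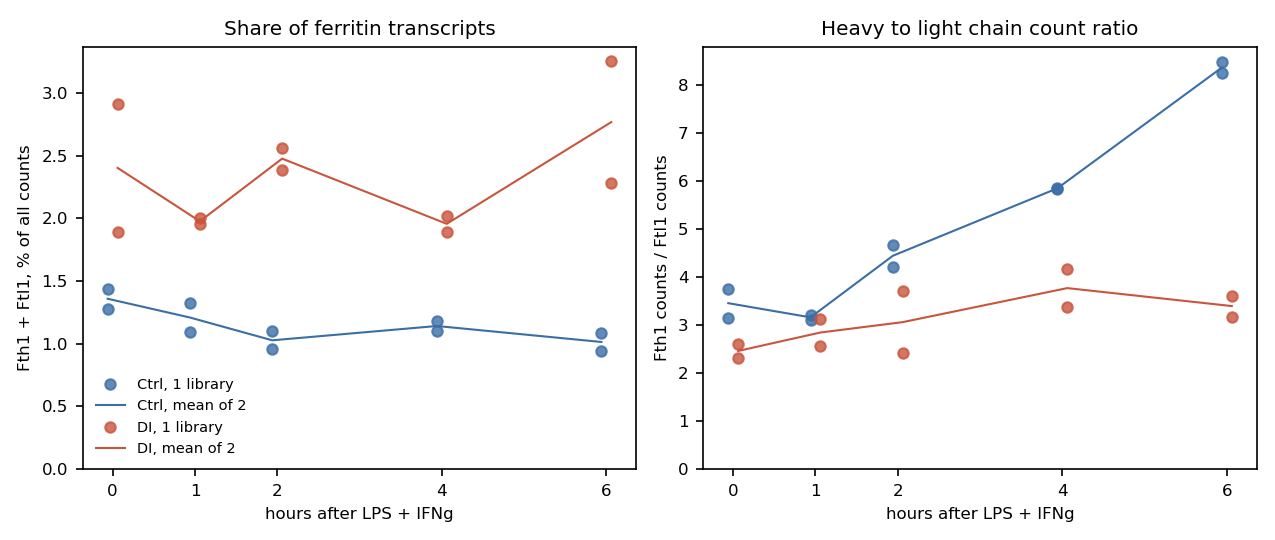
Left, Fth1 and Ftl1 together as a percentage of all counts; right, Fth1 counts divided by Ftl1 counts, both against hours after LPS and IFNg, with 1 point per library and lines through the means of 2. The DI share stays above the Ctrl share at every time, and the Ctrl ratio ends at 8.25 and 8.48.

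Slc40a1, the gene of the iron exporter ferroportin, had the widest difference of the 10 genes from 2 h on. At 0 h it stood at 537 and 496 CPM in DI and 133 and 101 CPM in Ctrl. At 1 h the levels were 622 and 364 against 80.8 and 113 CPM, and at 2 h 654 and 461 against 49.7 and 56.5 CPM. Both Ctrl libraries at 2 h were below the Ctrl pair of 0 h, while the DI pair at 2 h lay on either side of its own. At 4 h they were 306 and 338 against 34.5 and 22.9 CPM, and at 6 h 284 and 203 against 9.66 and 7.47 CPM. The lowest DI library, at 203 CPM, was above the highest Ctrl library, at 133 CPM. The change was 2.15 ± 0.31, 2.34 ± 0.32, 3.39 ± 0.33, 3.49 ± 0.34 and 4.83 ± 0.38 (edgeR adjusted p = 8.08e-05 at 0 h and 4.06e-09 at 6 h), and the fitted fold at 6 h was 28.5.

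Of the uptake genes, Tfrc was not called at any time. It stood at 33.8 and 34.0 CPM in DI and 49.0 and 53.7 CPM in Ctrl at 0 h, and at 28.2 and 20.1 against 32.2 and 45.7 CPM at 6 h. Both times are without overlap and lower in DI, but the changes of −0.60 ± 0.39 and −0.69 ± 0.41 did not pass the test (edgeR adjusted p = 0.577 and 0.296). At 1, 2 and 4 h the treatments overlapped, with 1 Ctrl library at 2 h at 131 CPM beside its partner at 50.5 CPM. Slc11a2 was not called either, with changes from −0.48 ± 0.38 at 6 h to 1.17 ± 0.39 at 2 h. At 2 h it stood at 85.1 and 98.3 CPM in DI and 42.1 and 39.6 CPM in Ctrl (edgeR adjusted p = 0.0726), a difference that DESeq2, the fit with no filter on low counts and the collapsed counts called (0.0261 to 0.0445).

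Slc11a1, the gene of the phagosomal metal transporter NRAMP1, was higher in DI at 4 of 5 times. Counts of transcripts do not show whether these cells make a working transporter. Slc11a1 ran from 91.7 to 219 CPM in the 10 DI libraries and from 38.3 to 73.5 CPM in the 10 Ctrl libraries, without overlap. At 0 h it stood at 155 and 91.7 against 54.4 and 47.8 CPM (1.27 ± 0.30), and at 6 h at 219 and 167 against 38.3 and 50.2 CPM (2.12 ± 0.31, edgeR adjusted p = 3.70e-05). At 2 and 4 h the changes were 1.05 ± 0.30 and 1.31 ± 0.31, and at 1 h 0.85 ± 0.30 was not called (edgeR adjusted p = 0.116). The 0 h call was lost without either Ctrl library or DI replicate 1 (0.84 to 1.36, adjusted p 0.105 to 0.226) and in a model of the compared groups alone (0.158). The 2 h call was lost on leaving out any 1 of the 4 libraries (0.90 to 1.19, adjusted p 0.0787 to 0.243), in that model (0.0796) and without replicate 2 of DI at 2, 4 and 6 h together (0.0605). The 4 h call was lost without either Ctrl library (1.23 to 1.38, adjusted p 0.0603 to 0.0921).

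**Figure D3:**
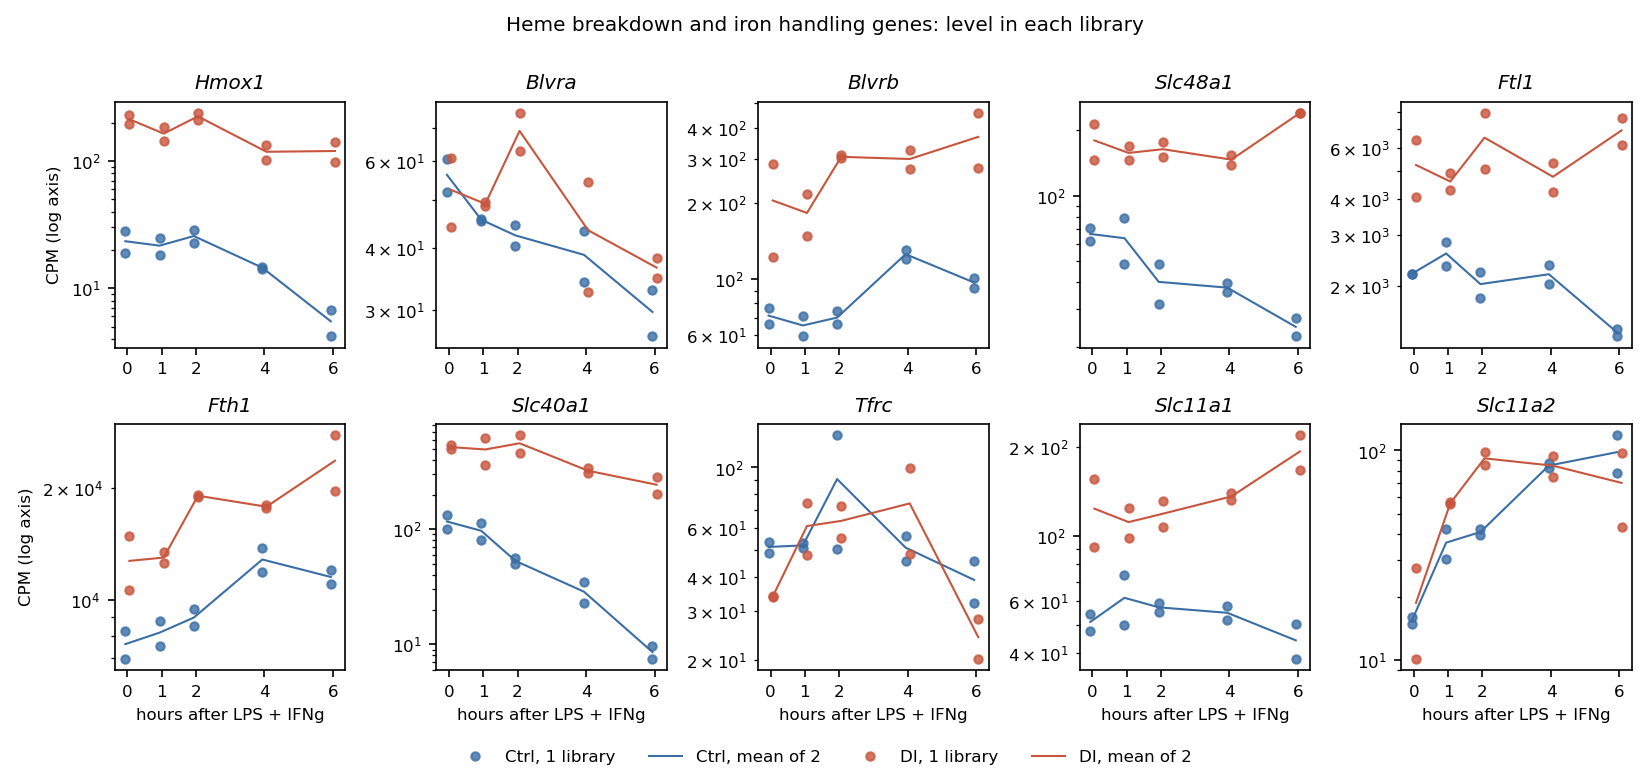
Level of each of the 10 genes in each library (CPM, log axes that differ between panels) against hours after LPS and IFNg, Ctrl in blue and DI in red, with lines through the means of 2 libraries. In Hmox1, Slc48a1, Ftl1, Slc40a1 and Slc11a1 every DI point lies above every Ctrl point of the course; in Tfrc and Slc11a2 the treatments cross.

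The second comparison asks how the genes responded to LPS and IFNg without DI, each time against the same 2 Ctrl libraries at 0 h. By 6 h Slc40a1, Hmox1, Slc48a1 and Blvra had fallen and Slc11a2 had risen. At 1 h none of the 10 was called in the edgeR fit to the filtered counts of all 20 libraries, where 3.65% of all genes tested rose and 0.422% fell. At an unadjusted p under 0.05, 1 was higher and 0 lower. DESeq2 called 1 (Slc11a2) and limma-voom 0. Slc11a2 was also called by edgeR with no filter on low counts, in a model of the compared groups alone and on collapsed counts (edgeR adjusted p 0.0145 to 0.0244). At 2 h 1 rose and 1 fell (9.13% and 3.09% of all genes), at 4 h 2 rose and 2 fell (14.7% and 9.58%), and at 6 h 1 rose and 4 fell (15.2% and 11.3%). The median change of the 10 was −0.03, 0.06, −0.01 and −0.54, beside −0.03, −0.11, −0.15 and −0.17 for all genes.

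Slc40a1 fell stepwise from the 133 and 101 CPM of 0 h to 9.66 and 7.47 CPM, a change of −1.13 ± 0.31, −2.03 ± 0.32 and −3.77 ± 0.36 from 2 to 6 h (edgeR adjusted p = 0.0139, 2.91e-05 and 1.45e-08). From 1 h on no 2 neighbouring times overlapped. The 2 h call was lost without Ctrl replicate 1 at 0 h or either library at 2 h (−1.24 to −0.93, adjusted p 0.0672 to 0.167). Hmox1 kept near its 0 h level until 2 h and fell by 2.10 ± 0.37 at 6 h (edgeR adjusted p = 9.12e-05), with −0.69 ± 0.32 at 4 h not called (0.129). Slc48a1 fell by 0.82 ± 0.30 at 4 h and 1.43 ± 0.31 at 6 h (edgeR adjusted p = 0.0472 and 0.00104). The 4 h call was lost on leaving out any 1 of the 4 libraries (−0.93 to −0.72, adjusted p 0.0956 to 0.232), with limma-voom (0.0523) and with no filter on low counts (0.0609). Blvra fell by 0.92 ± 0.31 at 6 h (edgeR adjusted p = 0.0300), a call also lost on leaving out any 1 of the 4 libraries (−1.09 to −0.78, adjusted p 0.0697 to 0.223) and with no filter (0.0565).

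Slc11a2 rose in Ctrl from 16.1 and 14.8 CPM at 0 h to 42.3 and 30.4 CPM at 1 h and 42.1 and 39.6 CPM at 2 h. At 4 h it stood at 87.0 and 82.4 CPM and at 6 h at 78.4 and 118 CPM, and no stimulated library overlapped the 0 h pair. The change was 1.40 ± 0.39, 2.45 ± 0.40 and 2.67 ± 0.41 from 2 to 6 h (edgeR adjusted p = 0.0179, 4.66e-05 and 1.65e-05). The 2 h call was lost on leaving out any 1 of the 4 libraries (1.34 to 1.46, adjusted p 0.0652 to 0.149). Fth1 rose by 0.75 ± 0.24 at 4 h (edgeR adjusted p = 0.0202), lost without either library at 0 h or replicate 2 at 4 h (0.63 to 0.88, adjusted p 0.0578 to 0.198) and with no filter on low counts (0.0608). At 6 h Fth1 was at 0.60 ± 0.24 and Ftl1 at −0.68 ± 0.27 (edgeR adjusted p = 0.0633 and 0.0624), neither called, although DESeq2, limma-voom and the model of the compared groups alone called Fth1 (0.0175 to 0.0344). Ftl1 was called lower in that model (0.0196), on collapsed counts (0.0351), without replicate 2 of DI at 2, 4 and 6 h together (0.0403) and with factors from genes averaging 32 CPM or more (0.00844). Blvrb, Tfrc and Slc11a1 were not called at any time in Ctrl by edgeR with all 20 libraries. In a model of the compared groups alone Blvrb was called at 4 h (0.85, adjusted p = 0.00546), and without Ctrl replicate 2 at 2 h Tfrc was called at 2 h (1.34, adjusted p = 0.0405).

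The third comparison follows the DI cells from their own 0 h. Slc11a2 rose at all 4 times, from 27.4 and 10.1 CPM at 0 h. The pairs that followed stood at 55.5 and 56.5, 85.1 and 98.3, 94.2 and 75.0, and 96.8 and 43.3 CPM, all above the 0 h pair. Its change was 1.59 ± 0.40, 2.30 ± 0.40, 2.19 ± 0.40 and 1.92 ± 0.40 (edgeR adjusted p = 0.0196, 2.16e-04, 2.84e-04 and 0.00106). The 1 h call was lost without DI replicate 2 at 0 h or either library at 1 h (1.03 to 1.61, adjusted p 0.0607 to 0.209) and in a model of the compared groups alone (0.179), and the 6 h call without DI replicate 1 at 6 h (1.22, adjusted p = 0.0528). Slc40a1 fell by 1.08 ± 0.30 at 6 h (edgeR adjusted p = 0.0124), to 284 and 203 CPM, which is still above every Ctrl library. That call was lost without DI replicate 2 at 6 h (−0.87, adjusted p = 0.132), in a model of the compared groups alone (0.0694) and without replicate 2 of DI at 2, 4 and 6 h together (0.114). Fth1 rose by 0.89 ± 0.24 at 6 h (edgeR adjusted p = 0.00846), lost without DI replicate 2 at 0 h or DI replicate 1 at 6 h (0.62 to 0.67, adjusted p 0.111 to 0.122) and in the model of the compared groups alone (0.153). Tfrc was called higher at 4 h only (1.13 ± 0.39, edgeR adjusted p = 0.0473), on libraries of 48.3 and 99.7 CPM against 33.8 and 34.0 CPM. Without DI replicate 2 at 4 h its change was 0.51 (adjusted p = 0.517), and the call was also lost without either library at 0 h, with limma-voom and in 5 other settings (0.0548 to 0.470).

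In counts, 1 gene rose at 1 h (3.29% of all genes rose and 0.300% fell), 1 at 2 h (7.89% and 3.09%), 2 at 4 h (11.4% and 7.34%) and 2 at 6 h with 1 lower (11.2% and 8.91%). The median change of the 10 was −0.12, 0.35, 0.00 and 0.41, beside 0.02, −0.05, −0.12 and −0.10 for all genes. Hmox1 in DI was at −0.85 ± 0.30 at 4 h and −0.83 ± 0.30 at 6 h, just short of the threshold (edgeR adjusted p = 0.0511 and 0.0543). DESeq2 and limma-voom called both lower. So did edgeR with a filter of 5 CPM in at least 2 libraries (adjusted p = 0.0451 and 0.0490) and on collapsed counts (0.0388 and 0.0413). With DESeq2 size factors edgeR called the 4 h change (0.0499). Without DI replicate 1 at 6 h the 6 h change was −1.125. Blvrb in DI was at 0.84 ± 0.33 at 6 h (edgeR adjusted p = 0.0712) and was called higher by limma-voom (0.0318), with no filter on low counts (0.0499), without replicate 2 of DI at 2, 4 and 6 h together (0.0378) and without DI replicate 2 at 6 h (0.0364). Without DI replicate 1 at 0 h, Blvrb was called at 2, 4 and 6 h, at 1.32, 1.29 and 1.58 in place of 0.58, 0.55 and 0.84, and Slc11a1 at 6 h, at 1.07 in place of 0.65 (adjusted p = 0.0376). The other genes were not called in DI by edgeR, with Blvra between −0.52 and 0.40, Slc48a1 between −0.29 and 0.42 and Ftl1 between −0.19 and 0.40.

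The fourth comparison asks whether DI altered the response itself, as the DI change from 0 h minus the Ctrl change from 0 h. No gene of the 10 was called at 1, 2 or 4 h by edgeR, DESeq2 or limma-voom, where 0.0375, 0.113 and 0.188% of all genes were higher and 0.216, 0.244 and 0.572% lower. At an unadjusted p under 0.05, 0, 1 and 1 of the 10 were higher at those times and 0 lower. At 6 h 2 were higher (0.572% of all genes higher, 0.975% lower) and 4 at an unadjusted p under 0.05. Slc40a1 fell less in DI than in Ctrl, by 2.69 ± 0.46 on the log2 scale (edgeR adjusted p = 0.00215): the Ctrl pair went from 133 and 101 to 9.66 and 7.47 CPM and the DI pair from 537 and 496 to 284 and 203 CPM. Slc48a1 fell in Ctrl and stood at 0.42 ± 0.29 in DI, a difference of 1.85 ± 0.43 (edgeR adjusted p = 0.0234). For Hmox1 and Ftl1 the differences of 1.27 ± 0.47 and 1.08 ± 0.38 at 6 h did not pass (edgeR adjusted p = 0.226 and 0.191). The other 6 genes lay between −0.75 ± 0.55 for Slc11a2 and 0.85 ± 0.43 for Slc11a1 at 6 h, with Tfrc, Fth1, Blvra and Blvrb at −0.09, 0.29, 0.40 and 0.41, and none was called. The median of the 10 at 6 h was 0.63 beside 0.03 for all genes. The call of Slc48a1 was lost without either Ctrl library at 0 h, either Ctrl library at 6 h, DI replicate 2 at 0 h or DI replicate 2 at 6 h (1.60 to 1.99, adjusted p 0.0574 to 0.143), in a model of the compared groups alone (0.0764) and without replicate 2 of DI at 2, 4 and 6 h together (0.0532).

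The order of the group means shows how the treatments separate. For Hmox1, Blvrb, Slc48a1, Ftl1, Slc40a1 and Slc11a1 the 5 highest groups of 10 were the 5 DI groups, as they were for 392 of the 10663 genes tested (3.68%). All of these but Blvrb also had every DI library above every Ctrl library, as had 1.05% of the genes tested. Within them, Slc40a1 was highest in DI at 2 h (558 ± 136 CPM, mean ± SD, n = 2), with 0 h (517 ± 29.5 CPM) and 1 h (493 ± 183 CPM) overlapping it, and the next groups, 322 ± 22.1 CPM at 4 h and 244 ± 56.9 CPM at 6 h, stood without overlap. Hmox1 was highest in DI at 2 and 0 h (224 ± 21.3 and 212 ± 26.9 CPM, overlapping) and lowest in Ctrl at 6 h (5.49 ± 1.85 CPM). Slc11a2 did not order by treatment, with both 0 h groups lowest (15.4 ± 0.889 CPM in Ctrl and 18.8 ± 12.2 CPM in DI, overlapping) and Ctrl at 6 h highest (98.2 ± 28.1 CPM), which overlapped DI at 2 h. Tfrc was highest in Ctrl at 2 h (90.7 ± 56.9 CPM) and lowest in DI at 6 h (24.1 ± 5.69 CPM), and each of its 6 highest groups overlapped the next in order.

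Other genes followed the same courses. Over the 10 group means of log2 CPM, among 6196 genes of at least 20 CPM in a group, those most like Hmox1 were Rnf128, Aprt, Gclc, Slc22a4 and Cbr3 (Pearson r from 0.980 to 0.972). Gclc encodes the catalytic subunit of glutathione synthesis and Cbr3 a carbonyl reductase. Those most like Slc40a1 were Cd300a, Vkorc1l1, Mindy1, Cbr3 and Ywhah (0.991 to 0.974). Tfrc had weaker matches in Ssbp3, Eea1, Atf6, Adnp2 and Srp72 (0.917 to 0.891). Among the 10 genes themselves, Slc48a1 and Ftl1 had r = 0.975, Hmox1 and Slc40a1 0.965, and Blvrb and Fth1 0.963, while Hmox1 and Tfrc had −0.04. The points share libraries and the 2 treatments, so these values are descriptions.

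Around these genes, 45 others of heme and iron metabolism were followed in 6 lists. Of them 38 could be tested, and Cd163, Flvcr2, Ncoa4, Tfr2, Cybrd1, Heph and Hamp had too few counts. In DI against Ctrl, 2 were higher and 1 lower at 0 h, 2 and 0 at 1 h, 1 and 1 at 2 h, 2 and 1 at 4 h, and 5 and 2 at 6 h. The shares of all genes tested at those times were 1.43% higher and 2.17% lower, 1.86 and 3.03%, 2.27 and 3.97%, 3.43 and 6.00%, and 5.24 and 8.95%. Their median change lay between −0.08 and 0.15 over the 5 times. Most of the wider pathway therefore did not pass the test. The lists differed in their medians. The 7 tested genes of iron uptake and reduction had −0.85, −0.75, −0.25, −0.61 and −0.75 in order of time. The 2 tested genes of iron export and withholding had −1.33, −0.91, −1.99, −2.43 and −3.10. Medians of the other lists lay between −0.08 and 0.62, and those of all genes tested between −0.06 and 0.00.

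Of 8 heme synthesis genes, Alas1, the first and rate-limiting enzyme outside red cells, was the only one called and was higher at all 5 times. It stood at 127 and 348 CPM in DI against 62.4 and 85.5 CPM in Ctrl at 0 h and at 1088 and 1049 against 284 and 279 CPM at 6 h. The change was 1.68 ± 0.38 at 0 h, 2.43 ± 0.39 at 1 h and 1.92 ± 0.38 at 6 h (edgeR adjusted p = 0.00879, 2.13e-04 and 9.28e-04), and it also rose in Ctrl, by 1.93 ± 0.38 at 6 h. The 0 h call was lost without Ctrl replicate 1 or DI replicate 2 (0.77 to 1.46, adjusted p 0.189 to 0.351) and in a model of the compared groups alone (0.175).

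Ceruloplasmin, the copper oxidase that loads exported iron onto transferrin (Cp), was lower in DI at 4 of the 5 times. At 6 h it stood at 36.4 and 46.2 CPM in DI and 1272 and 914 CPM in Ctrl, a change of −4.73 ± 0.39 (edgeR adjusted p = 7.89e-09). It was also lower at 0, 2 and 4 h (−1.48 ± 0.35, −2.51 ± 0.36 and −3.40 ± 0.37), and at 1 h −0.91 ± 0.34 was not called (edgeR adjusted p = 0.153). In Ctrl it rose by 4.74 ± 0.39 from 0 to 6 h and in DI by 1.48 ± 0.36, and the response difference at 6 h was −3.25 ± 0.49 (edgeR adjusted p = 5.50e-04). The rise in DI was not called without DI replicate 2 at 0 h (0.91, adjusted p = 0.0968) or in a model of the compared groups alone (0.0879). The 0 h call was lost without either Ctrl library or DI replicate 2 (−1.51 to −0.91, adjusted p 0.0614 to 0.213) and in a model of the compared groups alone (0.245). The other tested gene of the export and withholding list, the siderophore-binding lipocalin Lcn2, was looked at after its values were seen and was not called between treatments (−1.47 ± 0.50 at 6 h, edgeR adjusted p = 0.0518).

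Of 8 tested genes for heme capture, transport and sensing, 2 were called, both at 6 h. The heme exporter Flvcr1 stood at 30.6 and 23.8 against 11.8 and 6.58 CPM (1.58 ± 0.33, edgeR adjusted p = 0.00187), lost without Ctrl replicate 2 (1.20, adjusted p = 0.0773). Lrp1, a receptor of heme-hemopexin among many ligands, was higher by 1.16 ± 0.32 (edgeR adjusted p = 0.0165), lost without either Ctrl library or DI replicate 1 (0.68 to 1.31, adjusted p 0.0610 to 0.240) and in a model of the compared groups alone (0.0519). At 6 h Lrp1 stood at 102 and 58.0 CPM in DI and 32.2 and 39.8 CPM in Ctrl. Flvcr1 and Lrp1 were both called lower at 6 h than at 0 h in each treatment. Flvcr1 changed by −3.03 in Ctrl and −1.38 in DI, and Lrp1 by −2.95 and −1.48. No gene of this list was called in the response difference at 6 h. Bach1, the heme-sensing repressor of Hmox1, and Spic, a factor of red pulp macrophages, were looked at after their values were seen. Neither was called between treatments, and Bach1 lay between −0.02 ± 0.28 and 0.52 ± 0.28. With stimulation Bach1 rose in Ctrl by 2.73 ± 0.30 at 2 h and Spic by 2.79 ± 0.58 at 6 h (edgeR adjusted p = 1.90e-07 and 6.48e-04). Both were also called higher in DI at those times, Bach1 by 2.50 and Spic by 2.52.

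In the list of iron sensing and carriage, Fbxl5, the iron-sensing ubiquitin ligase subunit that removes IRP2, was higher in DI at 1, 4 and 6 h (1.37 ± 0.32, 1.20 ± 0.32 and 1.25 ± 0.31). At 6 h it stood at 175 and 206 against 77.3 and 83.1 CPM (edgeR adjusted p = 0.00782). Each call was lost without either Ctrl library and without 1 DI library of its time (replicate 2 at 1 and 6 h, replicate 1 at 4 h), with adjusted p from 0.0559 to 0.157. Pcbp1, an iron chaperone, was called at 0 h (1.00 ± 0.27, edgeR adjusted p = 0.0334), lost on leaving out any 1 of the 4 libraries (0.84 to 1.16, adjusted p 0.0569 to 0.425), in a model of the compared groups alone and with no filter (0.0655 to 0.175). The mitochondrial iron importer Slc25a37 was called higher at 6 h (1.46 ± 0.47, edgeR adjusted p = 0.0390), lost on leaving out any 1 of the 4 libraries (1.25 to 1.64, adjusted p 0.0559 to 0.224), with limma-voom and without replicate 2 of DI at 2, 4 and 6 h together (0.0533 to 0.135). Slc39a14, the importer ZIP14 in the uptake list, was called lower at 6 h (−1.85 ± 0.58, edgeR adjusted p = 0.0318), lost without Ctrl replicate 1 or DI replicate 2 (−1.49 to −1.45, adjusted p 0.212 to 0.231) and in 3 other settings (0.0527 to 0.0793).

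**Figure D4:**
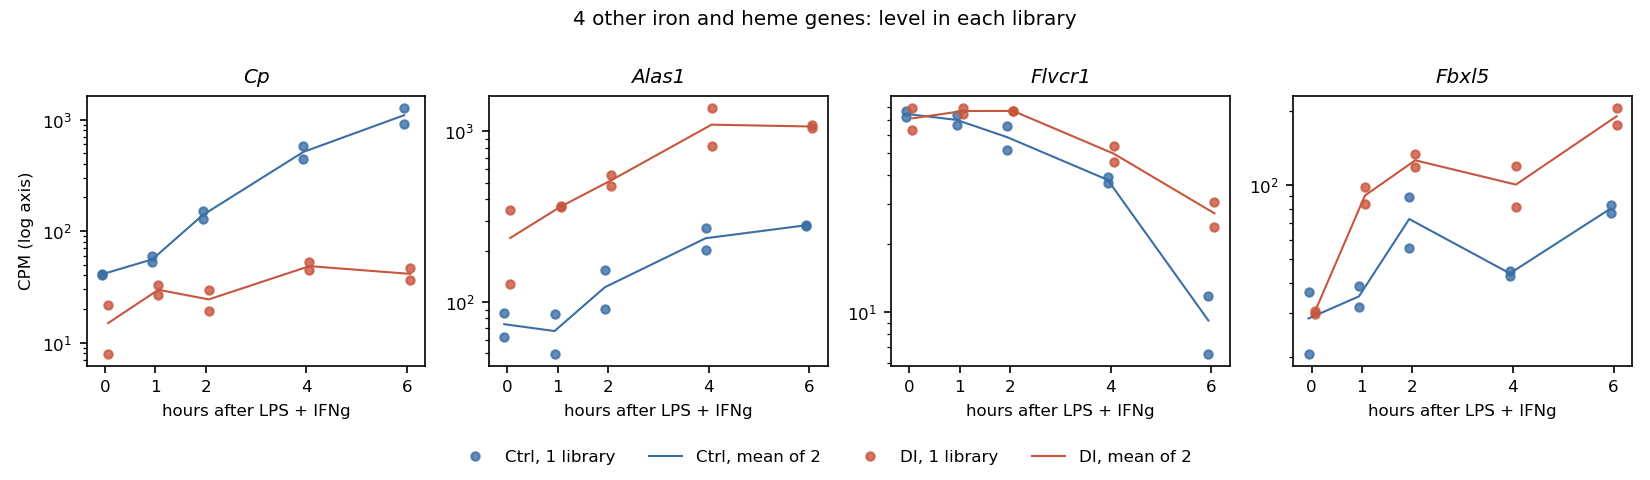
Levels of Cp, Alas1, Flvcr1 and Fbxl5 in each library (CPM, log axes that differ between panels) against hours after LPS and IFNg, with lines through the means of 2 libraries. Cp climbs to 1272 and 914 CPM in Ctrl at 6 h and stands at 36.4 and 46.2 CPM in DI, while Alas1 is higher in DI at every time.

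The size of the changes depends on the scaling in a known direction. Factors taken only from genes averaging 32 CPM or more moved the median of all genes by −0.20, −0.34 and −0.31 in Ctrl at 2, 4 and 6 h, by −0.14, −0.13, −0.24 and −0.16 in DI at 1, 2, 4 and 6 h, by 0.14 in DI against Ctrl at 6 h, and by 0.10 and 0.15 in the response difference at 4 and 6 h. The share of called genes that were higher then went from 36.4 to 47.4% and from 36.9 to 48.9% in DI against Ctrl at 4 and 6 h. In Ctrl at 2, 4 and 6 h it went from 74.7 to 59.7%, from 60.6 to 40.2% and from 57.5 to 40.5%. In DI it went from 71.9 to 60.8%, from 60.8 to 44.5% and from 55.8 to 44.9%, and in the response difference at 6 h from 37.0 to 50.0%. Of the 10 genes this scaling ended the calls of Slc11a2 in Ctrl at 2 h (1.20, adjusted p = 0.0511), Fth1 in Ctrl at 4 h (0.41, 0.220), Slc11a2 in DI at 1 h (1.41, 0.0577) and Tfrc in DI at 4 h (0.89, 0.108). It added 7 calls, all lower than 0 h: in Ctrl Slc48a1 at 2 h, Hmox1 and Blvra at 4 h and Ftl1 at 6 h, and in DI Slc40a1 at 4 h and Hmox1 at 4 and 6 h. It reversed no call of these genes.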

How the data were processed

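mRNA was captured on oligo-dT beads, and its 3′ ends were tagged by priming with barcoded oligo-dT. Samples were pooled by Actb qPCR and amplified by 12 cycles of PCR, per the labels' protocols. No molecular identifiers are named. The authors deposited raw counts per Ensembl gene for 20 libraries. STAR, HTSeq, DESeq2 and mm10 are named, without versions, per the submitters' processing notes, and counting options are not given in the sources used here. The 10 genes were matched by symbol in GENCODE M21 (GRCm38, the same assembly as mm10).

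Tests were run with edgeR 4.0.16 (R 4.3.3), and DESeq2 1.42.0 and limma 3.58.1 served as alternatives. After filterByExpr by group, 10663 genes remained. TMM scaling and 1 robust quasi-likelihood model (glmQLFit, glmQLFTest) with a coefficient per group were fitted to all 20 libraries, with 17 contrasts and Benjamini-Hochberg adjustment within each. SE is the change divided by the square root of F. Groups share 1 estimate of spread, so where a library was left out its lone partner was assumed to vary like the other groups. Contrasts within a treatment share their 0 h libraries. Correlations used log2 CPM with a prior count of 2. Reads per molecule were estimated from the share of genes at 0 among those with 4 to 12 expected reads. In simulated counts for DI against Ctrl at 0 h, 98% of changes of 2 on the log2 scale and 30% of changes of 1 were found, with 4 false calls among 10013 genes tested. The simulation gave all genes the same spread and changed only genes averaging 5 CPM or more. It held no difference in complexity between treatments, so these rates need not hold for the deposited libraries.

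The naming rule takes all 10 genes in every contrast, given by their range where they were not called. Of each pathway list up to 4 genes called in DI against Ctrl are named, by smallest adjusted p, and for Hmox1, Slc40a1 and Tfrc the 5 genes of most similar course, without predicted genes. The genes, lists and tests were chosen with earlier results of these data known. The alternatives were limma-voom, the DESeq2 Wald test, DESeq2 size factors, factors from genes averaging 32 CPM or more, no filter, a filter of 5 CPM in at least 2 libraries, a replicate block, counts collapsed to estimated molecules, and models of only the groups compared. Each library was also left out in turn, and the 3 DI libraries with most genes at 0 (replicate 2 at 2, 4 and 6 h) were left out together. Of the other marker lists, the summed level in Ctrl and DI libraries was 260 to 664 and 299 to 556 CPM for neutrophils, 2.19 to 6.46 and 0 to 3.77 CPM for B cells, 0 to 1.37 and 0 to 1.93 CPM for T cells, 8.80 to 17.8 and 4.53 to 23.6 CPM for dendritic cells, and 1.25 to 6.14 and 0 to 7.47 CPM for mast cells and basophils.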

Additional observations from a re-analysis of the deposited data

Results flagged for a closer look

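At 6 h the response of 2 of the 10 genes differed between treatments by the test of the difference itself. For Slc40a1 the DI change from 0 h exceeded the Ctrl change by 2.69 ± 0.46 on the log2 scale (edgeR adjusted p = 0.00215, 2 libraries per group), with a range of 2.43 to 2.91 and adjusted p up to 0.0349 over 18 alternatives. For Slc48a1 it exceeded it by 1.85 ± 0.43 (edgeR adjusted p = 0.0234), with a range of 1.60 to 2.15 and adjusted p up to 0.143, and 8 of 18 alternatives did not call it.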

How the results depend on the processing

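Of 50 calls of the 10 genes over 17 contrasts, 27 held in every alternative run and none reversed. Of the 30 calls in DI against Ctrl, alternatives other than leaving out a library gave 23 to 32 and leaving out 1 library gave 25 to 31. The 11 calls in the Ctrl response became 6 to 11 on leaving out 1 library (6 without Ctrl 0 h replicate 1, 7 without replicate 2). The 7 in the DI response became 3 in a model of the compared groups alone and 4 to 10 on leaving out 1 library (4 without DI 0 h replicate 2). The 2 response differences became 1 in that model, 1 without replicate 2 of DI at 2, 4 and 6 h, and 1 to 2 on leaving out 1 library. The 17 calls of the wider pathway became 28 with the DESeq2 Wald test and 12 to 23 on leaving out 1 library. With a replicate block these 5 counts were 30, 11, 6, 2 and 19. Deviations of same-numbered libraries correlated between −0.14 and 0.11 (median −0.01), so the numbers were not taken as pairs, and the block ended 1 call, Tfrc in DI at 4 h. The number does go with a library property in DI, where replicate 2 had more reads per molecule and more genes at 0 than replicate 1 at all 5 times. The cause of these changes was not tested.

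Counts over all genes moved by more than 1.5 times in every contrast. For DI against Ctrl in order of time they were 384 (91 to 703), 521 (252 to 831), 665 (276 to 1063), 1006 (421 to 1405) and 1513 (750 to 1923). In the Ctrl response they were 434 (255 to 824), 1303 (775 to 2746), 2594 (1619 to 4828) and 2826 (1818 to 4630), with each highest value in the model of the compared groups alone. In the DI response they were 383 (161 to 564), 1170 (532 to 1543), 1998 (926 to 2450) and 2149 (1004 to 2576), with each lowest value in that model. The response differences numbered 27 (13 to 60), 38 (8 to 124), 81 (37 to 217) and 165 (61 to 335). With 2 libraries per group, the simulation of DI against Ctrl at 0 h found 30% of changes of 1 on the log2 scale, so a gene that was not called is not shown to be unchanged.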
